A study of Chlorocebus aethiops with 8 samples.

Results

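The genes described here are 10 regulators of growth and survival whose mRNAs are known for long or structured 5′ untranslated leaders: MYC, CCND1, ODC1, VEGFA, HIF1A, XIAP, IGF1R, FGF2, CDKN1B and BCL2. Every probe set annotated with exactly 1 of these symbols was taken. That gave 9 probe sets of 52865, for 7 of the 10 genes: 3 for IGF1R and 1 each for MYC, CCND1, ODC1, FGF2, CDKN1B and BCL2. No probe set was listed with the symbol VEGFA, HIF1A or XIAP, and these genes were not analysed here. In all, 14133 genes had a probe set with 1 symbol.

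The RNA came from COS cells, a kidney line of the African green monkey (Chlorocebus aethiops) that carries SV40 large T antigen, and was read on rhesus macaque arrays. The gene DHX9 encodes RNA helicase A (RHA), and cells received either siRNAs directed at its coding sequence or scrambled siRNAs, each at 0.5 nM. Each treatment was sampled as cytoplasmic RNA and as RNA from the polysome fractions of sucrose gradients, which makes 4 groups of 2 arrays: cytoplasm and polysome under control siRNA, cytoplasm and polysome under RHA siRNA. All groups shared 1 transfection scheme: 4 h in serum-free medium with the siRNA, then 24 h with serum, a split, and the same transfection again. No untransfected cells were among the samples used here. The labels number the replicates 1 and 2; the 4 arrays of a number are called set 1 and set 2, and since nothing says that they were separate cultures, each p-value here reflects array-to-array spread, which may be technical.

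A small ribosomal subunit with its initiation factors loads at the capped end of an mRNA and scans its leader to the start codon, and stable structure in the leader slows that scanning. Cap-bound initiation factors with the helicase eIF4A unwind much of it, and further DExD/H-box helicases, RHA among them, act on particular leaders; the JUND leader is the cellular example known for RHA. Growth factors, their receptors, cyclin D1, MYC, ornithine decarboxylase and apoptosis inhibitors are textbook cases of mRNAs with demanding leaders. The ratio of polysomal to cytoplasmic signal is a measure of how much of an mRNA sits on several ribosomes at once. Each array was made from an equal amount of RNA, so a ratio describes an mRNA relative to the others, and a change shared by all mRNAs would not show.

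Array medians lay between 19.3 and 20.8 intensity units. The sets differed strongly: in a limma model that also held the replicate number, the test called 51.3% of the 26383 tested probe sets between set 2 and set 1 (adjusted p under 0.05). Within set 1, cytoplasmic control RNA gave the array least like the others, with a median r of 0.949 across probe sets against 0.967 or more for each of the other arrays. The mean difference between the 3′ and 5′ control probe sets of 3 housekeeping transcripts, a measure of RNA integrity, was 4.07 (log2) on that array, 2.54 to 3.71 on the other arrays of set 1 and 3.53 to 4.12 in set 2. DHX9 itself, at 244 and 342 in cytoplasmic control RNA and 130 and 254 under RHA siRNA, and at 359 and 477 against 97.2 and 269 in polysomes, was lower under RHA siRNA in all 4 comparisons within a set; only the polysomal values did not overlap, and neither difference passed limma (adjusted p = 1.00). Its 3 other probe sets lay under the limit for testing. Of kidney tubule markers 7 of 10 lay above the limit for testing, among them AQP1 (mean 1359) and PAX8 (86.3), while CDH1, PAX2 and LRP2 lay under it. Fibroblast markers were above it in 7 of 8 cases, led by VIM (4909), with COL1A2 below. Of 4 leukocyte genes 3 were above it, LYZ (mean log2 5.82), CD14 (4.46) and CD79A (4.46), whereas PTPRC, the gene that defines leukocytes, was not (3.17). The summed level ranged over the arrays from 1617 to 3114 for the kidney list, from 5065 to 7433 for the fibroblast list, from 78.1 to 166 for the leukocyte genes and from 150 to 1113 for the 2 hepatocyte genes, of which SERPINA1 was above the limit and APOA1 below it; the part of these differences in the results was not tested.

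Values are the deposited probe set intensities, and differences are on the log2 scale. A probe set was tested if its mean log2 over all 8 arrays was in the brighter 50% (a limit of 4.32, or an intensity of 19.9). Of the 9 member probe sets 8 passed, and the third probe set of IGF1R, with a mean log2 of 4.16, did not. Across the 6 comparisons made, limma called 0.00% of the tested probe sets, and thus 0 of the 8 members, at an adjusted p under 0.05. The model for these comparisons did not hold the replicate number, so the gap between the sets is part of each SE. At an unadjusted p under 0.05 in limma there were 46 to 426 probe sets per comparison, against 1048 to 3174 in the model that also held the replicate number. The lack of calls is thus no evidence of equal levels. The text below therefore gives the members' values, their spread and how often the sets gave the same direction, beside the share of all tested probe sets that did the same.

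**Figure D1:**
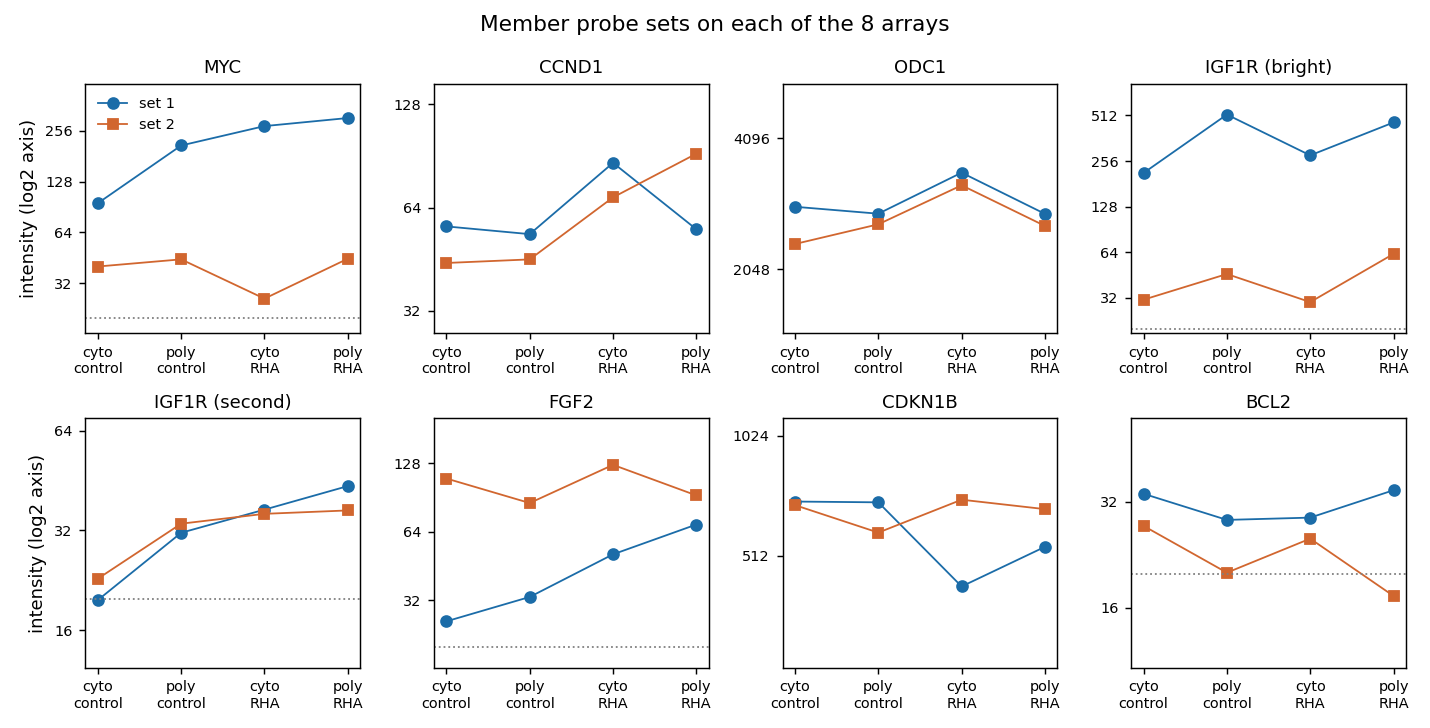
Intensity (log2 axis, a scale of its own in each panel) of the 8 tested member probe sets in cytoplasmic and polysomal RNA under control and RHA siRNA; each point is 1 array, lines join the 4 arrays of a set, and the dotted line is the limit for testing (19.9). The 2 sets lie far apart for MYC, the bright IGF1R probe set and FGF2, and close together for ODC1 and the second IGF1R probe set.

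IGF1R encodes the receptor tyrosine kinase for insulin-like growth factor 1. With each gene read by its brightest probe set, IGF1R had the highest polysome to cytoplasm ratio of the 7 genes. The mean log2 ratio over both siRNAs was 0.90, against 0.56 for MYC. The other probe sets of IGF1R lay below MYC, at 0.37 (MmugDNA.21123.1.S1_at) and 0.21 (MmunewRS.692.1.S1_at, under the limit for testing). The rank of IGF1R thus rests on its bright probe set. Its bright probe set (MmugDNA.21121.1.S1_at) read 214 in cytoplasm and 519 in polysomes of control cells in set 1, and 31.2 and 46.0 in set 2. Under RHA siRNA it read 279 and 460 in set 1, and 30.0 and 62.5 in set 2. Polysomal signal was thus above cytoplasmic signal in 4 of 4 pairs, while the levels of the sets lay so far apart that the groups overlapped.

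The log2 ratio of this IGF1R probe set was 0.92 under control siRNA (1.28 in set 1 and 0.56 in set 2; SE 1.76) and 0.89 under RHA siRNA (0.72 and 1.06). The mean over both siRNAs was 0.90, a 1.87-fold difference (SE 1.24), higher than in 99.9% of tested probe sets. Its adjusted p in limma was 1.00. The change in this ratio under RHA siRNA was -0.03 (-0.56 in set 1 and 0.49 in set 2), so the sets went opposite ways.

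A second IGF1R probe set (MmugDNA.21123.1.S1_at) read 19.7 and 22.9 in cytoplasmic control RNA and 31.5 and 33.5 in polysomal control RNA, with no overlap. Under RHA siRNA the cytoplasmic values were 37.0 and 35.9 and the polysomal values 43.6 and 36.8, which also did not overlap the control arrays of the same fraction but overlapped each other. Its log2 ratio was 0.61 under control siRNA (0.67 and 0.55; SE 0.30) and 0.13 under RHA siRNA (0.24 and 0.03). The change in ratio was -0.48 (SE 0.42; -0.44 and -0.52 in the sets, adjusted p in limma = 1.00).

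The cytoplasmic value of that second probe set was 1.71-fold of control under RHA siRNA (log2 0.78, SE 0.30; 0.91 and 0.65), with an unadjusted p of 0.0376 in limma in the model without the replicate number (adjusted p = 1.00). One of its cytoplasmic control arrays, that of set 1, lay under the limit for testing. The bright probe set gave 0.17 for the same comparison (0.39 and -0.05), above 0 in the mean but with the sets on opposite sides of 0. The third, dim probe set read 14.4 to 28.7 over the arrays and gave 0.23 for that comparison (0.18 and 0.28), without a test. Its log2 polysome to cytoplasm ratios were 0.41 (0.82 and -0.01) and 0.02 (-0.34 and 0.38) under control and RHA siRNA. All 3 IGF1R probe sets had a mean ratio above 0 over both siRNAs in each set. Of all tested probe sets 61.7% had such a ratio above 0 in the mean of the sets.

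FGF2, a basic fibroblast growth factor whose leader also holds upstream non-AUG start sites, was read at 25.8 in cytoplasm and 33.1 in polysomes of control cells in set 1, and at 110 and 85.5 in set 2. Under RHA siRNA it read 50.9 and 68.8 in set 1, and 126 and 92.3 in set 2. FGF2 was higher under RHA siRNA in all 4 comparisons, and higher in polysomes in set 1 but lower there in set 2 under either siRNA.

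The log2 ratio of polysome over cytoplasm for FGF2 was -0.001 under control siRNA (0.36 and -0.36 in the sets; SE 0.84) and -0.01 under RHA siRNA (0.44 and -0.45). The change between siRNAs was -0.004 (0.08 and -0.09; SE 1.19). FGF2 was at 150.4% of control in cytoplasm (log2 0.59, SE 0.84; 0.98 and 0.20) and at 149.9% in polysomes (log2 0.58; 1.06 and 0.11), with an adjusted p in limma of 1.00 in each. The value of set 1 was above that of set 2 in both fractions, and that gap was not tested.

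MYC encodes the transcription factor that drives growth and ribosome production. Its probe set (MmuSTS.999.1.S1_at) read 95.4 in cytoplasm and 210 in polysomes of control cells in set 1, and 40.2 and 44.3 in set 2. Under RHA siRNA the values were 274 and 306 in set 1, and 25.9 and 44.7 in set 2. MYC was higher in polysomes than in cytoplasm in 4 of 4 pairs, and every array of set 1 lay above every array of set 2.

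The log2 ratio for MYC was 0.64 under control siRNA (1.14 and 0.14; SE 1.45) and 0.47 under RHA siRNA (0.16 and 0.79). The mean of 0.56 was higher than in 97.5% of tested probe sets (adjusted p in limma = 1.00). The change in ratio was -0.17, made of -0.98 in set 1 and 0.65 in set 2. In cytoplasm the siRNA difference also turned between the sets, at 1.52 in set 1 and -0.63 in set 2, while in polysomes it was 0.54 and 0.01. The values of set 1 include the cytoplasmic control array least like the others, and those of set 2 do not; its part in the result was not tested.

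Among the tested member probe sets, 3 of 8 had a polysome to cytoplasm ratio above 0 in both sets under both siRNAs: MYC and the 2 of IGF1R. Of all tested probe sets 8.67% did so. None of the members lay below 0 in all 4 pairs, which 6.27% of all did. The probe sets of IGF1R share a gene, and so count as 1 of the 7 genes.

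**Figure D2:**
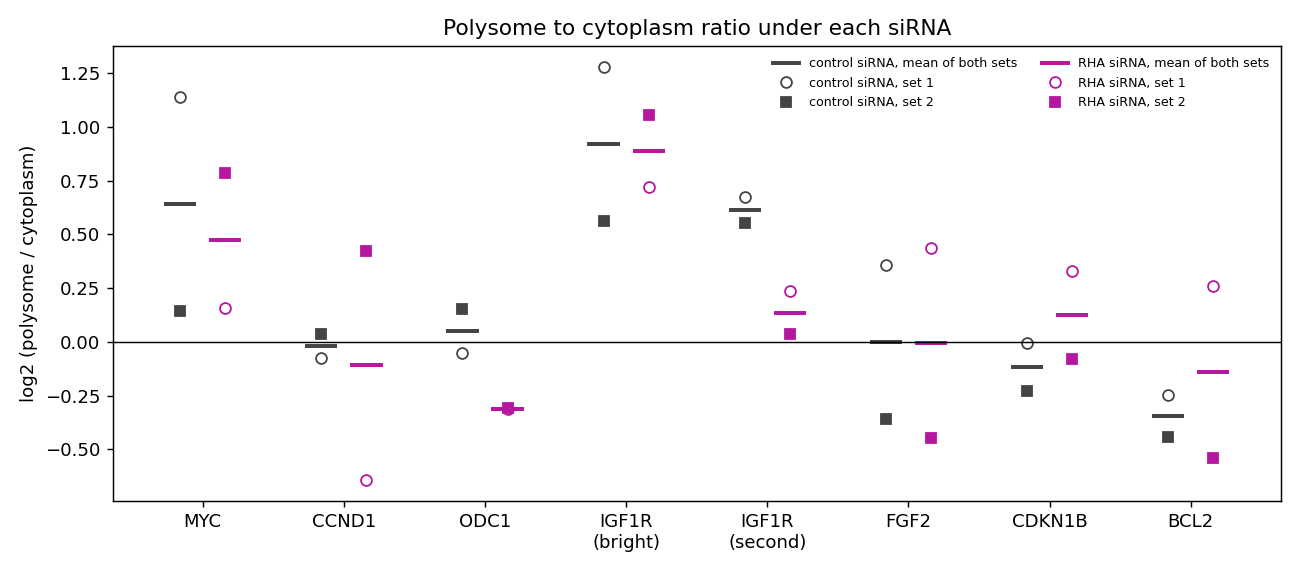
Log2 ratio of polysomal over cytoplasmic intensity for each tested member probe set under control siRNA (grey) and RHA siRNA (purple); open circles are set 1, filled squares set 2, and bars the mean of both. IGF1R (bright) and MYC lie above 0 in all 4 values, ODC1 lies at -0.31 in both sets under RHA siRNA, and for FGF2 the sets lie on opposite sides of 0.

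CCND1 encodes cyclin D1, which with CDK4 or CDK6 starts the passage through G1. Its intensity was 56.4 (set 1) and 44.1 (set 2) in cytoplasmic control RNA, against 86.4 and 68.6 with RHA siRNA. In polysomes it was 53.6 and 45.2 under control siRNA and 55.4 and 91.9 under RHA siRNA. The arrays of the 2 siRNAs did not overlap in either fraction, although the polysomal values of set 1 were almost equal.

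CCND1 was 1.54-fold of control in cytoplasm (log2 0.63, SE 0.38; 0.62 and 0.64 in the sets) and 1.45-fold in polysomes (log2 0.54; 0.05 and 1.02). Neither passed limma (adjusted p = 1.00 in each). The log2 polysome to cytoplasm ratio was -0.02 under control siRNA (-0.07 and 0.03) and -0.11 under RHA siRNA (-0.64 and 0.42). The change in ratio was -0.09 (SE 0.54), with -0.57 in set 1 and 0.39 in set 2.

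CDKN1B encodes p27, an inhibitor of cyclin-dependent kinases. It read 699 and 685 in cytoplasmic control RNA, 428 and 707 in cytoplasm under RHA siRNA, 696 and 584 in polysomal control RNA, and 538 and 669 in polysomes under RHA siRNA. All groups overlapped, and the lowest value of the 8 was the cytoplasmic RHA siRNA array of set 1. Its log2 ratio was -0.12 under control siRNA (-0.01 and -0.23; SE 0.36) and 0.13 under RHA siRNA (0.33 and -0.08), a change of 0.24 (SE 0.52; 0.34 and 0.15). CDKN1B was the single gene of the 7 whose ratio was higher under RHA siRNA in both sets. Of all tested probe sets 26.1% did the same.

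ODC1 encodes ornithine decarboxylase, the first enzyme of polyamine synthesis. Its intensity in cytoplasm was 2850 and 2341 under control siRNA and 3412 and 3192 under RHA siRNA, with no overlap. In polysomes it was 2747 and 2598 under control siRNA and 2745 and 2576 under RHA siRNA, which are nearly equal within each set. Within RHA siRNA cells both polysomal values lay below both cytoplasmic values.

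The log2 ratio of ODC1 was 0.05 under control siRNA (-0.05 and 0.15; SE 0.30) and -0.31 under RHA siRNA (-0.31 in each set). The change was -0.36, to 77.9% of the control ratio (SE 0.42; -0.26 and -0.46; adjusted p in limma = 1.00). Its 95% interval in limma ran from -1.37 to 0.65, so the spread between these arrays allows either sign. In cytoplasm ODC1 was 1.28-fold of control (log2 0.35; 0.26 and 0.45) and in polysomes 0.995-fold (log2 -0.01; -0.001 and -0.01). ODC1 was the single gene of the 7 with a lower ratio under RHA siRNA in both sets, as for 24.0% of all tested probe sets; the second IGF1R probe set did so too.

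BCL2 encodes an inhibitor of mitochondrial apoptosis. Its probe set read 33.7 and 27.3 in cytoplasmic control RNA, 28.9 and 25.1 in cytoplasm under RHA siRNA, 28.4 and 20.1 in polysomal control RNA, and 34.5 and 17.3 in polysomes under RHA siRNA. The last of these lay under the limit for testing, and all groups overlapped. The log2 ratio of BCL2 was -0.34 under control siRNA (-0.25 and -0.44; SE 0.43), lower than in all but 7.52% of tested probe sets. Under RHA siRNA it was -0.14 (0.26 and -0.54), and the change was 0.20 (0.50 and -0.10; SE 0.61).

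Over the 7 genes, each by its brightest probe set, the median log2 polysome to cytoplasm ratio was -0.001 under control siRNA (range -0.34 to 0.92), against 0.07 for all tested probe sets. Under RHA siRNA it was -0.01 (range -0.31 to 0.89), against 0.02. The median change was -0.03 (range -0.36 to 0.24), against -0.02, with -0.26 in set 1 and 0.15 in set 2. For 5 of the 7 genes the change had opposite signs in the sets. The 3′ to 5′ difference of the control transcripts moved by 2.25 (log2) in the same comparison in set 1 and by -0.08 in set 2; its part in the result was not tested.

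Under control siRNA the ratio was above 0 in both sets for 2 of the 7 genes (30.5% of all tested probe sets) and below 0 in both for 2, CDKN1B and BCL2 (20.2%). Under RHA siRNA it was above 0 in both sets for 2 (32.0% of all) and below 0 in both for 1, ODC1 (24.1%). Arrays of the fractions did not overlap for 1 of 8 member probe sets under control siRNA (the second of IGF1R; 13.9% of all) and for 1 of 8 under RHA siRNA (ODC1; 17.5% of all). These shares are near those of all probe sets.

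**Figure D3:**
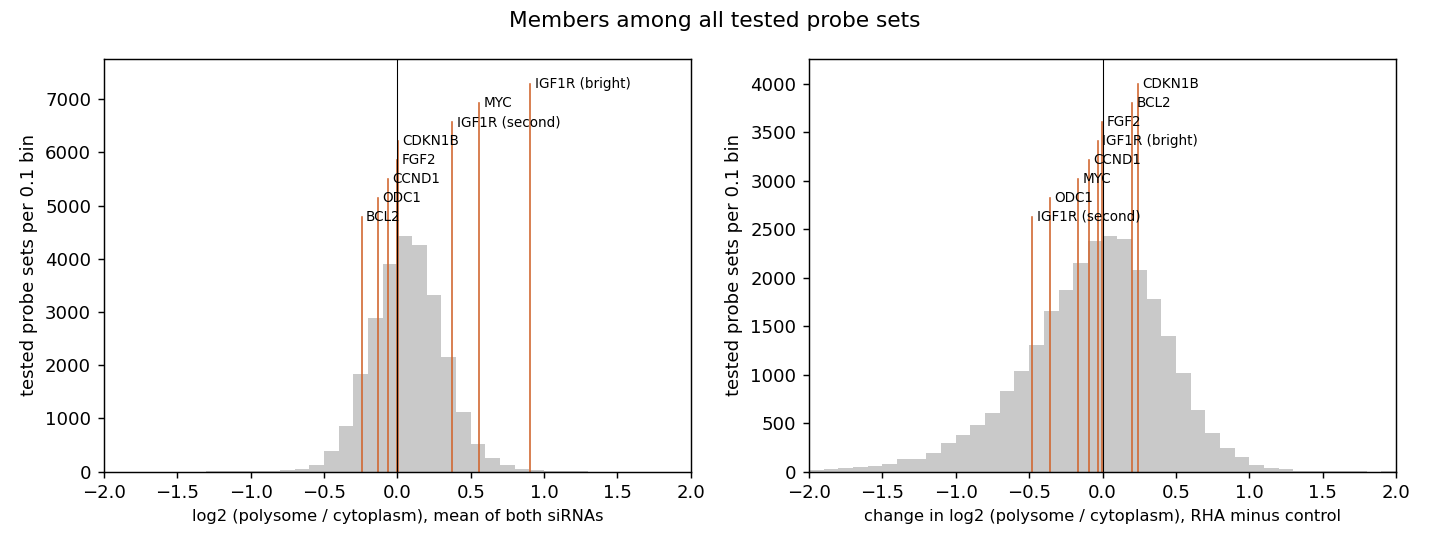
Distribution of all 26383 tested probe sets (grey bars, number per bin of log2 0.1) with the 8 member probe sets as vertical lines, for the mean polysome to cytoplasm ratio (left) and its change under RHA siRNA (right); line heights only separate the names. On the left IGF1R (bright, 0.90) and MYC (0.56) lie in the upper tail, and on the right all members lie between -0.48 and 0.24, inside the bulk.

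RHA siRNA arrays had the higher value in both sets and both fractions for 3 of the 8 member probe sets (CCND1, FGF2 and the second of IGF1R), against 9.81% of all tested probe sets, and the lower value throughout for none, against 8.99%. In cytoplasm 3 of the 7 genes were higher in both sets (CCND1, ODC1 and FGF2; 27.3% of all tested probe sets) and 1, BCL2, was lower in both (23.6%). In polysomes 3 were higher in both sets (MYC, CCND1 and FGF2; 27.9%) and 1, ODC1, was lower in both (25.6%), by 0.001 and 0.01. Arrays of the siRNAs did not overlap for 3 of 8 member probe sets in cytoplasm (19.4% of all) and for 2 of 8 in polysomes (15.7%), each time with RHA siRNA higher. The median difference of the 7 genes was 0.35 in cytoplasm (0.39 and 0.05 in the sets), against 0.05 for all tested probe sets, and 0.13 in polysomes (0.05 and 0.11), against 0.01. The control samples of a fraction serve in both the siRNA comparison and the ratio, so these values are not independent of the ratios above. In bulk RNA fewer expressing cells and less RNA per cell cannot be told apart.

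**Figure D4:**
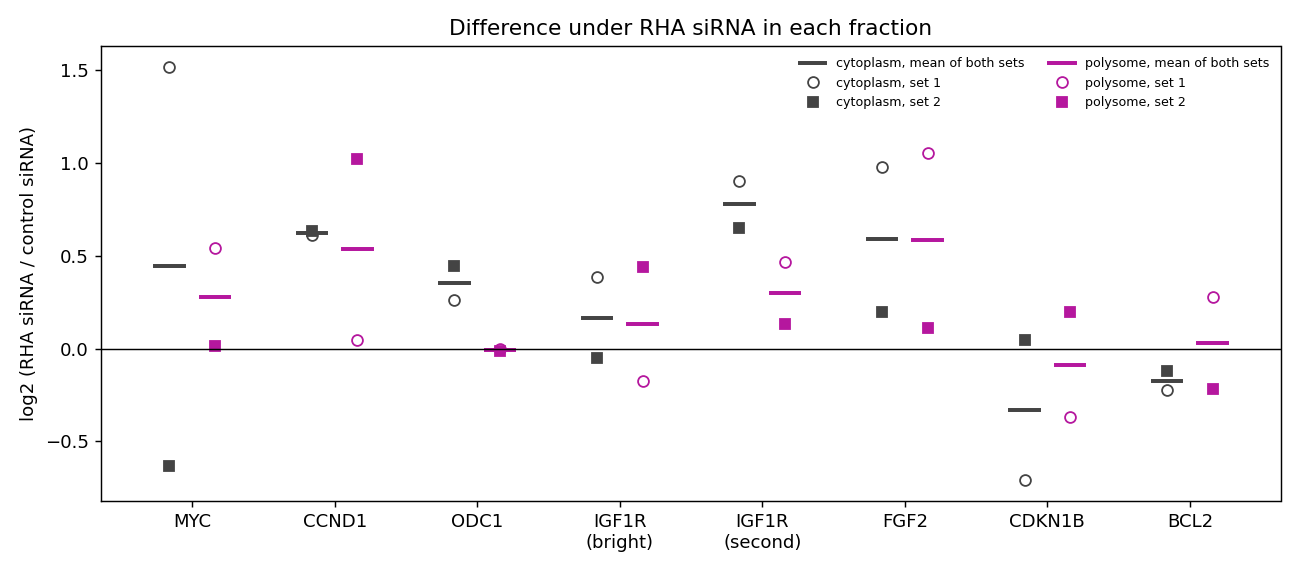
Log2 difference between RHA and control siRNA for each tested member probe set in cytoplasm (grey) and polysomes (purple); open circles are set 1, filled squares set 2, and bars the mean of both. CCND1, FGF2 and the second IGF1R probe set lie above 0 in all 4 values, whereas MYC in cytoplasm lies at 1.52 in set 1 and -0.63 in set 2.

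The difference between the sets passed the test for 3 of the 7 genes, against 51.3% of all tested probe sets, so such a difference is not particular to the members. In the limma model that also held the replicate number, the test called the set difference for the bright IGF1R probe set, which was 8.53-fold higher in set 1 (log2 -3.09 for set 2 over set 1, SE 0.18, adjusted p = 2.55e-05). It also called MYC, 5.34-fold higher in set 1 (log2 -2.42, SE 0.32, adjusted p = 0.000640), and FGF2, 2.46-fold higher in set 2 (log2 1.30, SE 0.26, adjusted p = 0.00434). Only 0.182% of tested probe sets had a lower value than IGF1R in this comparison and 0.538% a lower one than MYC. The second IGF1R probe set differed by 0.005 (SE 0.17, adjusted p = 0.983), so the 2 probe sets of this gene disagreed on the sets. CCND1, ODC1, CDKN1B and BCL2 did not pass (adjusted p in limma = 0.868, 0.489, 0.461 and 0.0571). As a result the SD within a group (log2, n = 2) reached 2.41 for MYC, 2.47 for IGF1R (bright) and 1.47 for FGF2, but 0.20 for ODC1.

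The partners of these proteins were read from fixed lists, each gene by its brightest probe set, and limma called 0 of them in either direction in any of the 6 comparisons. For the change in ratio, 48.0% of all tested probe sets lay above 0 in the mean of the sets, and 24.0% lay below 0 in both. Of 8 tested partners of MYC, 2 were above and 6 below 0 (median change -0.18), of which 2 were below 0 in both sets. MAX, the dimer partner of MYC, had a change of 0.15 (0.35 and -0.06 in the sets). MXI1, a MAX-binding repressor, had one of -0.30 (-0.81 and 0.21), so the sets went opposite ways for both. Of 12 tested partners of cyclin D and p27, 4 were above and 8 below 0 (median -0.13), with 2 above and 5 below in both sets. CDK4, the kinase bound by cyclin D1, had a change of -0.87 (-1.43 and -0.31 in the sets) and RB1, the substrate of that kinase, one of 0.53 (0.43 and 0.64).

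Polyamine enzymes and regulators had a median change of -0.16, with 3 of 9 above 0 and 6 below, and with 1 above and 4 below in both sets. SRM, spermidine synthase, had a change of -0.48 (-0.45 and -0.51), close to that of ODC1, and OAZ1, the antizyme that marks ODC1 protein for degradation, one of -0.87 (-1.41 and -0.33). EIF5A went the other way, with a change of 0.51 (0.32 and 0.69), and was the 1 gene of this list above 0 in both sets. Its mean level lay just above the limit for testing. Of 8 tested partners of the hypoxia factor 6 lay below 0 in the mean (median -0.09), but 1 did so in both sets and 2 lay above 0 in both, with set medians of 0.08 and -0.01. EPAS1, a paralog of HIF1A, had a mean polysome to cytoplasm ratio of 0.39 (0.31 and 0.47) and a change of -0.08 (-0.44 and 0.28). HIF1AN, which hydroxylates HIF1A, had a change of -0.64 (-1.50 and 0.21). CUL2, also of this list, had a change of 0.58 (0.90 and 0.25), above 0 in both sets.

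Of 16 growth factor receptors and adaptors with a probe set 10 were tested, and 8 of them lay below 0 (median change -0.13), 3 of them in both sets. IGF2R, a receptor that clears insulin-like growth factor 2, had a change of -0.93 (-1.64 and -0.22), and FGFR2, a receptor of fibroblast growth factors, one of 0.57 (0.09 and 1.05). Of 13 tested apoptosis genes 7 were above and 6 below 0 (median 0.01), with 1 above and 3 below in both sets. BIRC2, a relative of XIAP, had a mean ratio of 0.36 (0.54 and 0.18) and a change of 0.30 (0.28 and 0.32).

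Proteins that act on caps and leaders were taken from a pair of lists. Of 8 tested initiation factors and helicases, 8 lay below 0 in the mean, with a median change of -0.62 (-1.09 and -0.24 in the sets), but 5 of the 8 in both sets. DHX9, the target of the RHA siRNAs, is part of each of these figures, at -0.69 (-0.98 and -0.40). In set 2 EIF4G3 (0.52), DDX3X (0.96) and EIF4G2 (0.005), named here after their values were seen, lay above 0. EIF4E, the cap-binding protein, had a change of -0.85 (-1.20 and -0.49) and DHX29, a helicase that aids scanning, one of -0.56 (-0.82 and -0.30). Of 11 tested leader-binding proteins 11 lay below 0 in the mean (median -0.22; -0.54 and -0.08), and 6 of them in both sets, with HNRNPL at -1.19 (-2.29 and -0.08). YBX1, an mRNA-packaging protein, had the lowest p of that list for the mean ratio, at -0.71 (-0.67 and -0.74; adjusted p in limma = 1.00).

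Housekeeping mRNAs had a median change of -0.89 (-1.17 and -0.48), with 7 of 8 below 0 and 5 of them in both sets. TUBB, a tubulin, had a change of -2.05 (-3.48 and -0.61) and PKM, a glycolytic enzyme, one of -1.63 (-2.55 and -0.71; unadjusted p in limma = 0.0283, adjusted p = 1.00). Terminal oligopyrimidine mRNAs, which encode ribosomal proteins and translation factors, had 4 of 6 below 0 and 2 above, each in both sets (median -0.14). Below 0 was RACK1, a ribosomal scaffold protein, at -0.43 (-0.81 and -0.06). The median change over the 7 genes with structured leaders was -0.03 (-0.26 in set 1 and 0.15 in set 2), near that of all tested probe sets, -0.02. The housekeeping and cap-binding lists had the lowest medians of the lists, while that of the apoptosis list (0.01) lay nearer 0 than the members' median. The cap-binding list includes DHX9, the siRNA target. The difference between lists was not tested. In set 1 these changes include the cytoplasmic control array least like the others and a 3′ to 5′ difference of the control transcripts that moved by 2.25, and their part in the result was not tested.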

How the data were processed

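The authors deposited 1 linear intensity per probe set and array. GCOS and RMA are named in the submitters' processing notes, without versions; which step each did is not given in the sources used here. Of 52865 probe sets 99 were controls, 24972 carried 1 gene symbol, 358 several and 27535 none in the probe annotation. Intensities were put on the log2 scale and the brighter 50% of the 52766 other probe sets were tested by lmFit and eBayes of limma 3.58.1 under R 4.3.3 (two-sided, Benjamini-Hochberg over 26383 probe sets), in 1 model of 4 groups over all 8 arrays; the test was run on simulated data first. Within-set values are differences between single arrays. The number of arrays limits the precision. Members and lists were chosen with earlier results of these data known. All member probe sets were named; of other lists, up to 2 genes per direction with the smallest p for the change in ratio or the mean ratio. Alternatives were the replicate block, other filters, scalings and an offset, and leaving out arrays. No sequences or coordinates were used.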

Additional observations from a re-analysis of the deposited data

Results flagged for a closer look

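ODC1 was singled out because its siRNA difference had opposite signs in the fractions on every pair of arrays: 0.26 and 0.45 (log2; set 1, then set 2) in cytoplasm, against -0.001 and -0.01 in polysomes. The polysomal differences are close to 0. The difference between the fractions, -0.36, was tested as the change in polysome to cytoplasm ratio and did not pass limma (adjusted p = 1.00). No group had enough arrays for a check of outlying samples.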

How the results depend on the processing

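No member gene was called in any of the 6 comparisons under any alternative: the replicate block, no filter, the brightest 25%, quantile normalisation, median centring, an offset of 16, each array left out, and, added after seeing the data, the block with each array left out. The counts over all probe sets also stayed at 0, except for the block combined with leaving out cytoplasmic control replicate 2, where limma called 748 for the ratio under control siRNA, 274 for the mean ratio and 1150 for RHA siRNA in cytoplasm. With the block alone, adjusted p of the 7 genes ran from 0.473 to 1.00, and 1048 to 3174 of all probe sets per comparison had an unadjusted p under 0.05. Unadjusted p under 0.05 with the block were those of IGF1R: 0.00789, 0.00948 and 0.00123 for the control, RHA and mean ratios of the bright probe set, and 0.0318 and 0.0109 for the control ratio and the cytoplasmic siRNA difference of the second (adjusted p in limma 0.320 to 0.958). IGF1R (bright) came nearest the threshold, for its mean ratio in 1 of the fits with the block and without an array, which leave 1 array in a group. Values larger than their SE were the siRNA differences of CCND1 in both fractions, and the cytoplasmic siRNA difference and RHA ratio of ODC1. None of these changed sign. The BCL2 control ratio, the IGF1R (bright) mean ratio, and the ODC1 mean ratio and change also kept their sign. Every other value changed sign in at least 1 alternative. The control ratio did so in 2 of 23 for IGF1R (bright) and 2 of 22 for MYC, and the CCND1 change in 9 of 21. The ODC1 change in ratio ranged from -0.50 to -0.22 over the fits without 1 array. Without the block such fits mix the sets: the mean ratio of IGF1R (bright) ranged from 0.03 to 1.78 and that of MYC from -0.29 to 1.41. With each array centred on its median, the median of all tested probe sets for the ratio under control siRNA moved from 0.07 to -0.08, and the share above 0 from 59.8% to 40.4% (48.3% with quantile normalisation); the members' median moved from -0.001 to -0.15. The main model did not hold the replicate number, since nothing in the labels makes the arrays pairs. The within-set values do pair arrays by that number. Deviations of same-numbered arrays from their group means correlated with r = 0.680 to 0.868, so the main model counts the gap between the sets as spread. For the ratio under control siRNA, the SE without and with the block was 1.76 and 0.26 for IGF1R (bright). It was 1.45 and 0.45 for MYC, and 0.38 and 0.32 for CCND1.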
